A study of Mus musculus with 12 samples.

Results

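Chromatin accessibility was compared in NIH/3T3, a mouse fibroblast line that grows without limit in culture, between derived lines in which the actin gene Actg1 carries a premature stop codon and a line in which the gene is gone. The comparison used 9 of the 12 ATAC-seq libraries of the series, 3 each from the lines PTC1, PTC2 and LD, with the 3 wild type (WT) libraries as a reference. ATAC-seq uses the transposase Tn5 to cut and tag open DNA. A region with more reads was more open, open in more of the cells or present in more copies, which a bulk library cannot tell apart. The number of DNA copies was not tested for any region. PTC1 has a frameshift from 1 nucleotide inserted between positions 280 and 281 of the Actg1 coding sequence, on 1 allele together with the substitution A280G (the reference base, its coding position, then the base of the allele), and its stop codon lies in exon 3. PTC2 has 4036 nucleotides inserted between positions 1096 and 1097 of the Actg1 transcript and its stop codon lies in exon 5. LD lacks the full locus, and WT carries no edit. All 3 mutant lines were made with CRISPR-Cas9. The 3 samples of a genotype are described as biological replicates, with no separate clones of an allele named. Each mutant was therefore taken as 1 line, and the p-values measure the spread between libraries of these lines, not between lines.

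For each of 81985 regions (of 81995, after 10 with a mean normalized read count under 5 over the 12 libraries were left out), the mean of the PTC1 and PTC2 group means of log2(normalized read count + 1) was compared with the LD mean. Results are given for the 54839 regions (66.89%) in which both premature stop lines lay on the same side of LD, 27561 above and 27278 below. That shared side was a condition of the choice and is not itself a result. A region was called where the limma adjusted p of the mean difference was under 0.05, and it was called in each line where PTC1 and PTC2 also passed that threshold one by one against LD in the same direction.

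Actg1 encodes cytoplasmic gamma-actin, one of the 2 actins that build the cytoskeleton of most cells. An mRNA with a premature stop codon can be recognised during translation and destroyed by nonsense-mediated decay. In transcriptional adaptation, decay of a mutant mRNA is accompanied by higher output of related genes, and an allele that makes no mRNA lacks this trigger. Lines with a premature stop codon were therefore compared with a line without the locus. What the mutant mRNA adds to the loss of the protein was not tested, since no genotype had replicate lines. Any such effect is mixed with other differences between the lines. PTC1 and PTC2 were themselves called apart at 62.5% of tested regions. Against LD, PTC1 was called at 67.8% and PTC2 at 59.5%. Neither mRNA levels nor mRNA decay were measured in these libraries.

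Of the promoters at start sites with large differences, 4 are printed here, 300 bases each from 250 bases before to 50 bases after the start, from RefSeq (GRCm38.p6, 5′ to 3′ on the strand of the gene). Trim68 and Mga are shown because they were the most extreme start sites at which WT stood with LD, and Bicd1 and Hspb1 because no neighbouring region was called in each line in their direction. Each of the 4 windows lay wholly inside the region measured. Capitals mark matches to 6 motifs searched on both strands: the CArG box, AP-1 TGANTCA, TEAD GGAATG, RUNX TGTGGT, FOX TGTTTAC and the NFI site, the first and last by name. A stretch that matched more than 1 motif counted for each.
Trim68 (chr7:102687278-102687577, minus strand, above LD): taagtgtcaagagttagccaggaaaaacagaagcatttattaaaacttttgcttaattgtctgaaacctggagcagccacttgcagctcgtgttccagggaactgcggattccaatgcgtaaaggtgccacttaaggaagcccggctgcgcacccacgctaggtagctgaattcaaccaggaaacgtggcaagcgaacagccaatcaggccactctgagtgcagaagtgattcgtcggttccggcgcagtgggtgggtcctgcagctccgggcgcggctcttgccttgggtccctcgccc
Bicd1 (chr6:149408734-149409033, plus strand, above LD): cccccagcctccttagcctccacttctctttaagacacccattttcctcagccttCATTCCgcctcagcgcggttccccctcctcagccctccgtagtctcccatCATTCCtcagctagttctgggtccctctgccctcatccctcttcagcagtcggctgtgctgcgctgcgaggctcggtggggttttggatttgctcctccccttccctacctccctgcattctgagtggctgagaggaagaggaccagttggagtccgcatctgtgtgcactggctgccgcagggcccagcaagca
Mga (chr2:119896978-119897277, plus strand, below LD): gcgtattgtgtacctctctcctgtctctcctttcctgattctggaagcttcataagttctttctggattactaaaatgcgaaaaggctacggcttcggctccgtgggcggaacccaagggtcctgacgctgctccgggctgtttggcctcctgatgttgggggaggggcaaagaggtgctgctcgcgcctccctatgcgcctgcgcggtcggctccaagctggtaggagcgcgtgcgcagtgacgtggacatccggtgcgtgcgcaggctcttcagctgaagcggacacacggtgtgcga
Hspb1 (chr5:135887669-135887968, plus strand, below LD): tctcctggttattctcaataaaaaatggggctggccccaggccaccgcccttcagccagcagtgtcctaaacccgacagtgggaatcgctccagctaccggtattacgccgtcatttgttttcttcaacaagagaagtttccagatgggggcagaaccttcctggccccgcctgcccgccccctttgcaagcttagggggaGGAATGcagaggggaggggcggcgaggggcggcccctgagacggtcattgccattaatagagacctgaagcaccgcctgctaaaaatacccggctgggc
The Trim68 and Mga windows held no match to the 6 motifs. The Bicd1 window held 2 matches to the TEAD motif on the opposite strand and the Hspb1 window held 1 on the printed strand. Over the 7419 genes whose RefSeq promoter was overlapped by the region read for the gene, 11.4% had a TEAD match, with 10.8% of the 2491 called above LD in each line and 11.1% of the 641 called below. AP-1 matches were found in 5.07% of the 7419, in 4.86% of those above and in 8.58% of those below. CArG boxes, the binding sequence of the serum response factor SRF, were found in 1.23% of the 7419, in 1.53% of those above and in 0.78% of those below. Of those with both lines 1 or more from LD (log2), TEAD matches were in 21% of 100 above and 6.56% of 122 below. In these smaller sets AP-1 matches were in 10% and 12.3%, and CArG boxes in 2% and 0%. No motif share was tested. Over all 32851 promoters of the RefSeq table the shares were 14.7% for TEAD, 7.81% for AP-1 and 1.63% for the CArG box. Of 42 named genes looked up, 16 had a promoter that the named region overlapped.

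The libraries were alike within groups. Their normalized read counts summed to 31.29 to 34.8 M (M, 1e+06 reads) after the authors' scaling, which is not the sequencing depth, and the median region held 118 to 121 in PTC1, 110 to 113 in PTC2 and 124 to 128 in LD. Between libraries of 1 group, Pearson's r across the tested regions, which are not independent of each other, was 0.9819 to 0.9867. PTC1 libraries correlated with LD libraries at 0.8172 to 0.8243, PTC2 with LD at 0.8962 to 0.9002, and PTC1 with PTC2 at 0.8481 to 0.8561. The premature stop lines correlated less with each other than PTC2 did with LD.

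Actg1 itself could not be read. The nearest regions on chromosome 11 lay 47598 bp before and 21166 bp after the gene (120345687 to 120348495, mm10). Neither was called, with adjusted p of 0.104 and 0.0677. The deletion was therefore not checked at its own locus.

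The related actin genes gave the clearest difference at Actg2, which encodes the gamma-actin of smooth muscle. The region over the Actg2 start site (chromosome 6, 83535961 to 83536888, centre 160 bp from the start) had normalized read counts of 430, 415 and 369 in PTC1, 353, 331 and 339 in PTC2, and 35, 54 and 40 in LD. WT stood at 16, 36 and 29. All 6 premature stop libraries were far above all 3 LD libraries, and LD overlapped WT, with a mean that was 0.70 higher (adjusted p = 0.00498). The premature stop lines exceeded LD by 3.10 on the log2(value + 1) scale (SE 0.174, 95% interval 2.75 to 3.46, adjusted p = 2.02e-15), 8.59-fold, with 3.23 in PTC1 and 2.98 in PTC2. Of the 10 nearest regions 9 were also called above LD in each line, with a median difference of 1.11. When each library was centred on the running median of its 100 nearest regions (local centring) the Actg2 difference was 2.33.

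A second region inside the Actg2 gene body (83533791 to 83534017) held 79, 98 and 89 in PTC1, 77, 78 and 85 in PTC2 and 8, 11 and 17 in LD. WT was at 14, 14 and 19, so that here WT and LD overlapped and the premature stop lines stood alone. The log2 difference from LD was 2.77 (SE 0.231, adjusted p = 1.35e-11). Upstream of Actg2 (83541748 to 83542936) the lines parted: PTC1 had 431, 367 and 449, PTC2 153, 131 and 168, and LD 64, 91 and 71. Both lines exceeded LD, by 2.46 in PTC1 and 1.00 in PTC2, and their mean difference of 1.73 became 0.95 after local centring.

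**Figure D1:**
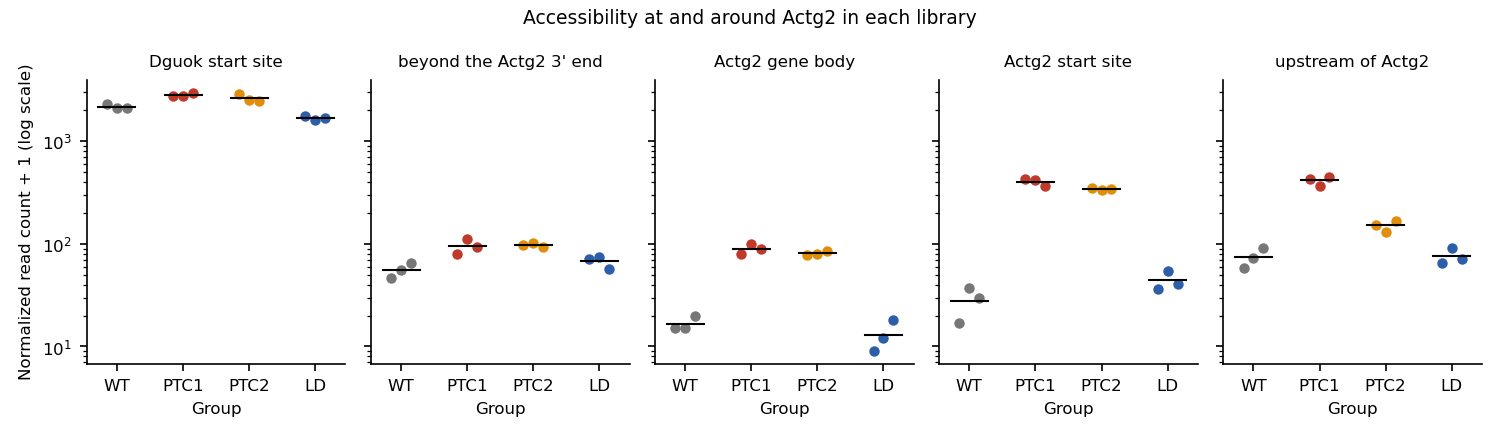
Normalized read count + 1 (log scale) in each library at the 5 same-side regions at and around Actg2, from the Dguok start site to the region upstream of Actg2; points are libraries and lines are group means. At the Actg2 start site and gene body the 6 premature stop libraries lie above all LD and WT libraries, with means of 404.7 and 341 against 43 in LD at the start site.

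The neighbours of Actg2 were higher too, by less. The start site region of Dguok, a mitochondrial nucleoside kinase gene, had means of 2822 ± 123 (SD, n = 3) in PTC1, 2622 ± 226 in PTC2 and 1693 ± 81.4 in LD, a log2 difference of 0.68 that turned to -0.09 after local centring. After chromosome centring the Dguok difference was 0.19 and still called. Beyond the 3′ end of Actg2 (83512300 to 83512759) the difference was 0.51 (adjusted p = 0.00735). It turned to -0.26 after local centring and was 0.02, not called, after chromosome centring. Without LD replicate 3 it was 0.39 and missed the threshold. The plot of the Actg2 regions by library shows the start site and gene body apart from these flanks.

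At Actb, the gene of the other cytoplasmic actin, the lines hardly differed. The start site region (chromosome 5, 142905667 to 142907273) held 3009, 2885 and 3206 in PTC1, 3123, 2916 and 2901 in PTC2 and 2979, 2706 and 2713 in LD, and the groups overlapped. The log2 difference of 0.10 (adjusted p = 0.0426) turned to -0.095 under loess normalization and was called there in the other direction (adjusted p = 0.0168). On its own PTC1 was called (0.12, adjusted p = 0.0468) and PTC2 was not (0.09). The difference was 0.016 after local and 0.057 after chromosome centring, and not called in either. The call was also lost at 0.103 in the fit without WT and in that without a variance trend, and without WT replicate 2, PTC1 replicate 1 or 3, PTC2 replicate 1, or LD replicate 2 or 3, at 0.080 to 0.106.

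Around Acta1, the skeletal muscle actin gene, the premature stop lines lay below LD. On chromosome 8 the region from 123883230 to 123883886 had 155, 177 and 200 in PTC1, 367, 355 and 316 in PTC2 and 564, 598 and 564 in LD. The groups did not overlap, PTC1 was lowest, and WT (450, 429 and 536) lay between PTC2 and LD, with a log2 difference of -1.22 (SE 0.091, adjusted p = 1.31e-12). The region from 123887473 to 123888515 was lower by -0.79 with nearly equal lines (-0.78 in PTC1 and -0.80 in PTC2). A smaller difference of -0.23 between these, at 123884698 to 123885121, lost its call under scaling to the same median (-0.11). Near Acta2, the smooth muscle alpha-actin gene on chromosome 19, the region from 34243936 to 34244552 was 0.51 higher, with 285.3 ± 17 in PTC1, 372 ± 38.5 in PTC2 and 228.3 ± 3.79 in LD. Of the 18 regions at or near an actin gene (a background of 54.6% of all regions called on the same side), 12 had both lines on one side of LD, 7 were called higher and 3 lower, and 6 and 2 were called in each line. The 2 not called in the mean lay at Fbxl18 near Actb (0.06) and at 34241387 to 34241746 near Acta2 (-0.05), and the sign of both turned under loess normalization and local centring.

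Over the genome, the comparison with LD called a large share of all regions. The mean difference was called at 53093 of the tested regions (64.8%), at 44732 (54.6%) with both lines on the same side. One by one, PTC1 was called against LD at 67.8% of regions and PTC2 at 59.5%. Of the tested regions, 22462 (27.4%) were called higher and 22270 (27.2%) lower on the same side in both lines, and 14317 (17.5%) and 14305 (17.4%) were called in each line. Both lines differed by 1 or more on the log2 scale at 3692 regions above LD (4.50%) and 5262 below (6.42%). Both lines were called against LD in opposite directions at 7610 regions (9.28%). All 6 premature stop libraries lay above all 3 LD libraries at 18.1% of regions and below them at 19.2%. Scaling all libraries to the same median gave 27599 higher and 17647 lower, and so moved the higher share of the calls from 50.2% to 61%. The median region moved by it from -0.004 to 0.114 on the log2 scale.

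**Figure D2:**
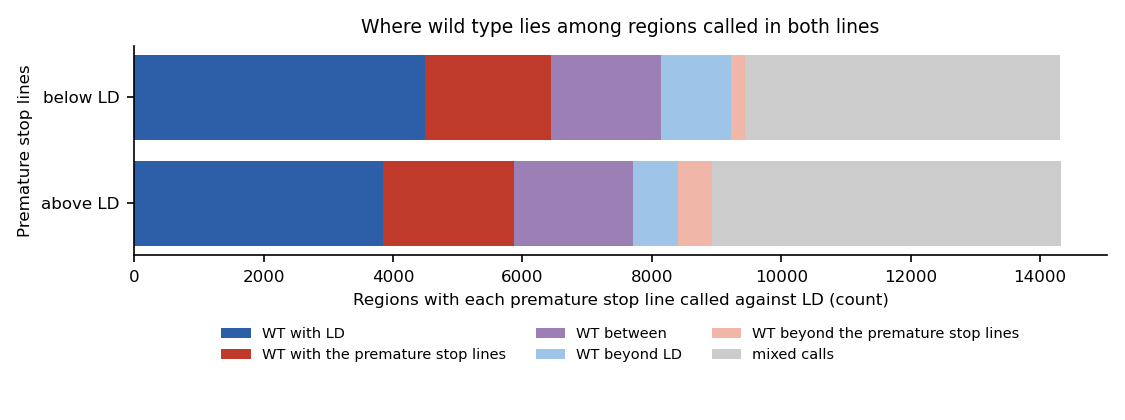
Number of regions called in each premature stop line above or below LD, divided by where the WT libraries lie. Of the 14317 regions above LD, WT stood with LD in 3845 and with the premature stop lines in 2025.

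The regions called in each line differed in size between directions. Those above LD had a median log2 difference of 0.79 and those below -1.12. The lines also differed from each other within these lists: PTC1 and PTC2 were called apart at 6900 (48.2%) of the regions above LD and 7825 (54.7%) of those below, where 62.5% of all tested regions were called between the lines. Above LD, PTC1 was the higher of these in 4546 and PTC2 in 2354. Below LD, PTC2 was the higher in 4816. PTC1 thus lay farther from LD more often in both directions. At the edge of the threshold, with the larger of the lines' adjusted p between 0.04 and 0.05, the 444 regions above LD had a median smaller difference of 0.375, and the 407 just outside, up to 0.06, had 0.382.

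WT was not part of the comparison, and its position divides the lists. Each count that follows is a description, since the contrasts share libraries. Among the regions above LD in each line, WT stood with LD in 3845 (26.9%), meaning that LD and WT were not called apart and each premature stop line was called against WT. It stood with the premature stop lines in 2025 (14.1%), where LD was called against WT and neither line was. It was called between them in 1839 (12.8%), outside on the LD side in 690 (4.82%) and outside on the other in 526 (3.67%), and the remaining 5392 had mixed calls. Below LD the first 2 shares were 31.4% (4489 regions) and 13.6% (1946 regions). The bar plot of WT positions shows both directions side by side. Of all tested regions 47.4% were called between LD and WT, and 59.0% between the premature stop mean and WT.

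Among regions listed with a gene, the largest rises over LD were at or near genes of varied known roles. Trim68, which encodes a RING ubiquitin ligase, had 843, 1039 and 934 at its start site (chromosome 7, 102686940 to 102687592) in PTC1, 465, 482 and 521 in PTC2 and 10, 16 and 4 in LD. WT held 16, 9 and 12, so that LD and WT overlapped near 0 and the premature stop libraries were far above both. The log2 difference was 6.11 (SE 0.228, adjusted p = 1.75e-19), 69.3-fold. Il1rapl1, a synaptic adhesion protein gene (chromosome X, 88115554 to 88116282), gave the opposite picture of WT. It had 283, 232 and 277 in PTC1, 101, 132 and 127 in PTC2, 167, 169 and 204 in WT and only 2, 0 and 0 in LD. Its log2 difference of 6.95 depends on the pseudocount and was 4.14 with 10 in place of 1, because LD was at or near 0.

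Rises were also called at genes of receptors and a G protein subunit. At Fzd3, a Frizzled receptor for WNT ligands (chromosome 14, 65261878 to 65262786), PTC1 had 635, 691 and 718, PTC2 334, 305 and 328, and LD 18, 13 and 21, a log2 difference of 4.70 (adjusted p = 1.56e-22). WT values lay above those of LD at Fzd3, at 131, 162 and 124. The G protein subunit gene Gng2 (chromosome 14, 19976527 to 19977480) was nearly equal in the 2 lines, at 726 ± 57.2 in PTC1 and 757 ± 59.1 in PTC2 against 31.33 ± 3.22 in LD (log2 4.52). Gabre, a GABA receptor subunit gene on chromosome X, had 769 ± 58.4 in PTC1, 363 ± 5.00 in PTC2 and 20.33 ± 2.08 in LD, and WT with 573.3 ± 46.5 lay between the lines. Eda2r, a receptor of the TNF receptor family, had like values in WT (291 ± 28.8), PTC1 (294.7 ± 10.5) and PTC2 (263.3 ± 35.0), and was low only in LD (15 ± 4.00). Its region lay inside the gene body, 4156 bp from the start site.

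The other rises were at genes of enzymes and a motor adaptor. Hs3st3b1, whose enzyme adds sulfate to heparan chains (chromosome 11, 63921867 to 63922749), had means of 486.3 ± 59.5 and 727.3 ± 65.5 in the PTC1 and PTC2 lines, against 27 ± 4.58 in LD and 20.67 ± 5.51 in WT. Bicd1, which encodes a cargo adaptor of the motor dynein and whose promoter is printed above, had 477, 524 and 512 in PTC1, 416, 446 and 424 in PTC2 and 18, 34 and 29 in LD (log2 4.10). The remaining rises were Rnls, a flavin enzyme gene (4.48), the trypsinogen gene Prss2 (4.37, 1528 bp from the start site) and Hsd17b11, a lipid droplet enzyme gene (3.89). In each of Bicd1, Rnls, Prss2 and Hsd17b11 WT was called between LD and the premature stop lines. These were taken from 4123 regions that met the rule.

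**Figure D3:**
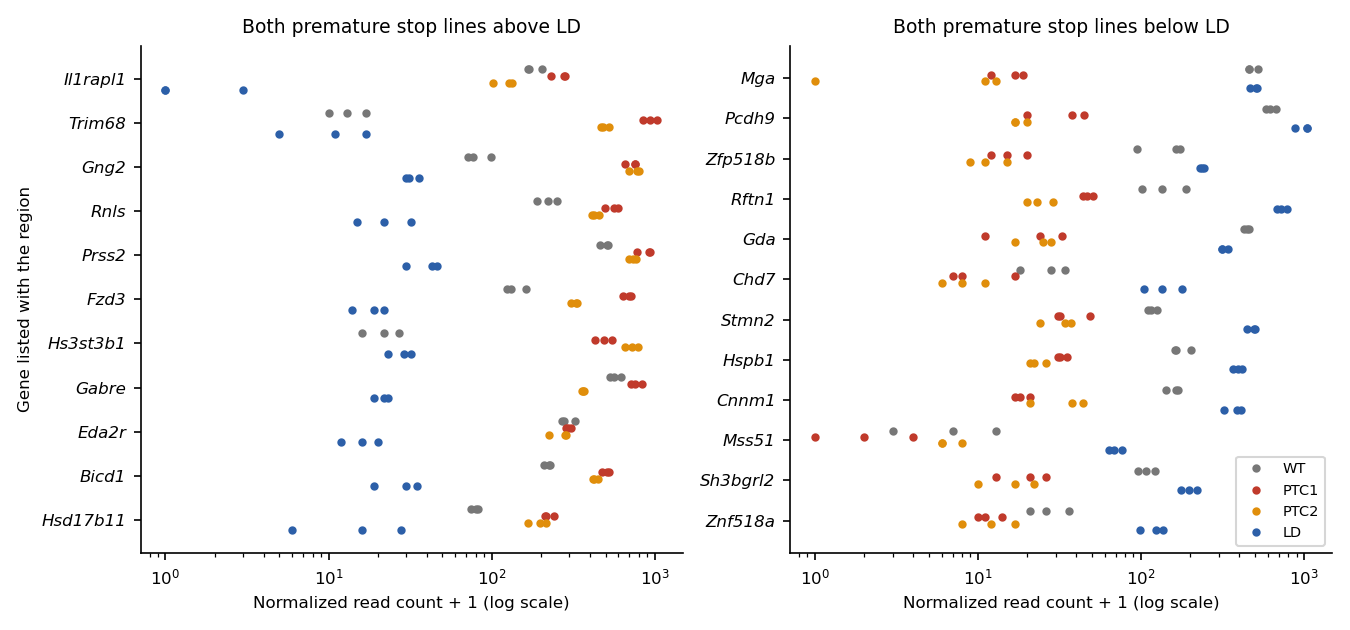
Normalized read count + 1 (log scale) in each library at regions with the largest rises over LD (left) and the largest falls below LD (right), named by the listed gene. The premature stop and LD libraries do not overlap in any of them by the rule that chose them. WT was not called apart from LD at Trim68, Hs3st3b1, Mga and Gda.

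The largest falls were headed by Mga and Pcdh9. At the start site of Mga, which encodes a MAX-binding transcriptional repressor (chromosome 2, 119896863 to 119897673), the premature stop libraries were nearly empty, with 18, 16 and 11 in PTC1 and 12, 10 and 0 in PTC2. LD held 506, 514 and 463 and WT 519, 457 and 457, so that LD and WT overlapped. The log2 difference from LD was -5.77 (SE 0.418, adjusted p = 6.05e-13). Pcdh9, a protocadherin gene (chromosome 14, 93889940 to 93891404), had 44, 37 and 19 in PTC1, 16, 19 and 16 in PTC2 and 1048, 880 and 1043 in LD, with WT below LD at 671, 615 and 580. Its log2 difference was -5.36 (SE 0.165). Pcdh7, another protocadherin gene (chromosome 5), differed by -4.05, with 58 ± 3.61 in PTC1, 20.67 ± 4.16 in PTC2, 585 ± 9.54 in LD and 510 ± 25.2 in WT. Chd7, a chromatin remodeller gene (chromosome 4), was low in WT as well, with 25.67 ± 8.08 there, 9.67 ± 5.51 in PTC1, 7.33 ± 2.52 in PTC2 and 137.7 ± 37.2 in LD.

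At Hspb1 and Stmn2 WT was called between LD and the premature stop lines. Hspb1, a small heat shock protein that binds actin filaments, had 30, 31 and 34 in PTC1 and 21, 25 and 20 in PTC2 at its start site (chromosome 5, 135887579 to 135888357) against 392, 414 and 364 in LD. WT was at 160, 162 and 203, and the log2 difference from LD was -3.84 (SE 0.148, adjusted p = 3.91e-19). Stmn2, a tubulin-binding protein gene of neurons (chromosome 3), had 36.33 ± 10.1 in PTC1, 30.67 ± 6.81 in PTC2, 481.3 ± 28.2 in LD and 116.7 ± 7.64 in WT. Rftn1, a lipid raft protein gene, had 46.33 ± 3.51, 23 ± 4.58 and 728 ± 54.1 in PTC1, PTC2 and LD. At Gda, the guanine deaminase gene, WT (445 ± 16.7) was not called apart from LD (323.7 ± 15.9), though all WT libraries lay above all LD libraries. The rest were Mss51 (-4.26, and -2.56 with a pseudocount of 10), Zfp518b (-4.16), Cnnm1 (-3.91), Sh3bgrl2 (-3.51) and Znf518a (-3.34), from 1633 regions that met the rule. The Mss51 and Cnnm1 regions lay outside the gene body, 3329 and 5120 bp from the start site, and the Stmn2 region lay inside it, 1486 bp away. All the rises and falls named here kept their direction under local centring and loess normalization.

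Where WT stood with LD, further rises in both premature stop lines lay at Hoxc12, Snai3 and Nipsnap1. The region 4577 bp from the start of the homeobox gene Hoxc12 (chromosome 15, 102931780 to 102932580) had 223, 219 and 258 in PTC1 and 179, 200 and 163 in PTC2. LD had 14, 16 and 26 and WT 21, 18 and 20, and the log2 difference from LD was 3.44. Snai3, a Snail family repressor gene, was 3.12 higher (2.08 with a pseudocount of 10) and Nipsnap1, a mitochondrial protein gene, 2.56 higher. Falls of this class after Mga, Gda and Pcdh7 were at Trav7-6, a T cell receptor gene segment (-3.57), Zkscan16, a zinc finger gene (-3.00), and Usp43, a deubiquitinase gene (-2.87). The Snai3 and Trav7-6 regions lay 3421 and 5230 bp from their start sites.

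Where WT stood with the premature stop lines, the value of LD was the one apart. After Il1rapl1 and Eda2r, the largest rises over LD were at Prmt8, an arginine methyltransferase gene, with 45.67 ± 8.74 in PTC1, 69.33 ± 2.52 in PTC2, 46.67 ± 5.69 in WT and 8.67 ± 2.08 in LD. Il18, a cytokine gene (1.54), Crybb1, a lens crystallin gene (1.67, and 1.00 with a pseudocount of 10), and Bgn, the matrix proteoglycan biglycan (1.51, and 0.72 after local centring), followed. In the other direction Htr5b, a serotonin receptor gene, had 91 ± 7.81 in LD and 8.33 ± 3.22, 11.33 ± 5.86 and 15 ± 5.57 in PTC1, PTC2 and WT. Ildr1, a tricellular junction protein gene (-2.91), the lipase gene Pnlip (-3.22), Rragd, a GTPase of amino acid sensing (-2.71), the transcription factor gene Bcl11b (-2.69), and Bmp6, a BMP ligand gene (-2.63), were of the same class. With a pseudocount of 10 the differences at Pnlip, Rragd and Bcl11b were -2.12, -1.52 and -1.38, since the premature stop libraries held low values there. The Prmt8, Bgn and Bmp6 regions lay 1570, 3771 and 4196 bp from their start sites, and those of Crybb1, Ildr1 and Pnlip 1381, 1033 and 1931 bp.

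Regions with no listed gene held differences as large. On chromosome 14, 20082416 to 20083461, PTC1 had 2617, 2660 and 2572, PTC2 2080, 1874 and 1896 and LD 17, 40 and 29, a log2 difference of 6.33 (SE 0.13, adjusted p = 1.53e-25), while WT held 732, 832 and 821. On chromosome 15, 65550723 to 65551286, LD had 2, 0 and 1 where PTC1 had 189, 227 and 165 and PTC2 244, 225 and 251. In that region the difference was 6.89, and 4.36 with a pseudocount of 10. The other rises were on chromosome 11 (56603608 to 56604286, 6.68) and chromosome 2 (124120418 to 124120919, 6.16). In the other direction, on chromosome 4 (70914543 to 70915026), PTC1 had 1, 8 and 1 and PTC2 5, 0 and 1 where LD had 308, 286 and 297 and WT 257, 247 and 253. Falls on chromosome 19 (9444699 to 9445183, -5.48), chromosome 14 (93717051 to 93717348, -5.34, and -3.50 with a pseudocount of 10) and chromosome 5 (39145695 to 39146322, -5.27) followed. On the chromosome 19 region WT held 11, 11 and 5, close to the premature stop lines, and LD stood alone with 228, 263 and 248.

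By count, a minority of the large differences came in stretches of neighbouring regions, but several of the most extreme regions named above lay in them. Runs of at least 10 successive regions with each line called and 1 or more from LD on the log2 scale numbered 19 above LD, with 315 regions (8.53% of the 3692 such regions), and 12 below, with 141 regions (2.68% of 5262). The longest by regions, on chromosome 6 from 144061581 to 144689563, held 32 regions with median values of 186.8 in PTC1, 37.33 in PTC2, 5.67 in LD and 68.83 in WT. In 13 of the 19 runs above LD, the median difference of LD lay 1 or more from WT on the log2 scale while the premature stop lines did not both do so. Below LD, 6 of the 12 runs had both premature stop lines 1 or more from WT and LD not. Whether the DNA of these stretches was present in the same number of copies in each line was not tested.

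Named genes and regions lay inside such runs. Of the regions without a listed gene, those from 56603608 on chromosome 11 and 124120418 on chromosome 2 lay in runs above LD. Those from 70914543 on chromosome 4 and 39145695 on chromosome 5 lay in runs below LD. The Gng2 run (chromosome 14, 19841137 to 20084716) held 19 regions with median values of 226.3 in PTC1, 198.7 in PTC2, 21.33 in LD and 40.67 in WT, and the region without a listed gene from 20082416 is its 18th. The Hoxc12 run (chromosome 15, 102845256 to 102932580) held 10 regions, with 98.5 and 67.83 in PTC1 and PTC2 against 13 in LD. Below LD, the Rftn1 run (chromosome 17, 49980007 to 50190870) had 10 regions at 12 in PTC1, 7.67 in PTC2, 127.8 in LD and 16.83 in WT. A run of 14 regions from 62629548 to 63130671 on chromosome 2 held Ifih1, a cytosolic sensor of viral RNA, and one of 17 on chromosome 4 held Tox, a transcription factor gene of T cell development. In each of the 4 runs of the line plot the median WT value lay between those of LD and the premature stop lines. The median log2 difference of LD from WT was -1.227 in the Gng2 run and -0.9968 in the Hoxc12 run. It was 2.82 in the Rftn1 run and 0.9425 in the Ifih1 run. In the Rftn1 run the premature stop lines were nearer to WT than LD was, at -0.6866 in PTC1 and -1.034 in PTC2.

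**Figure D4:**
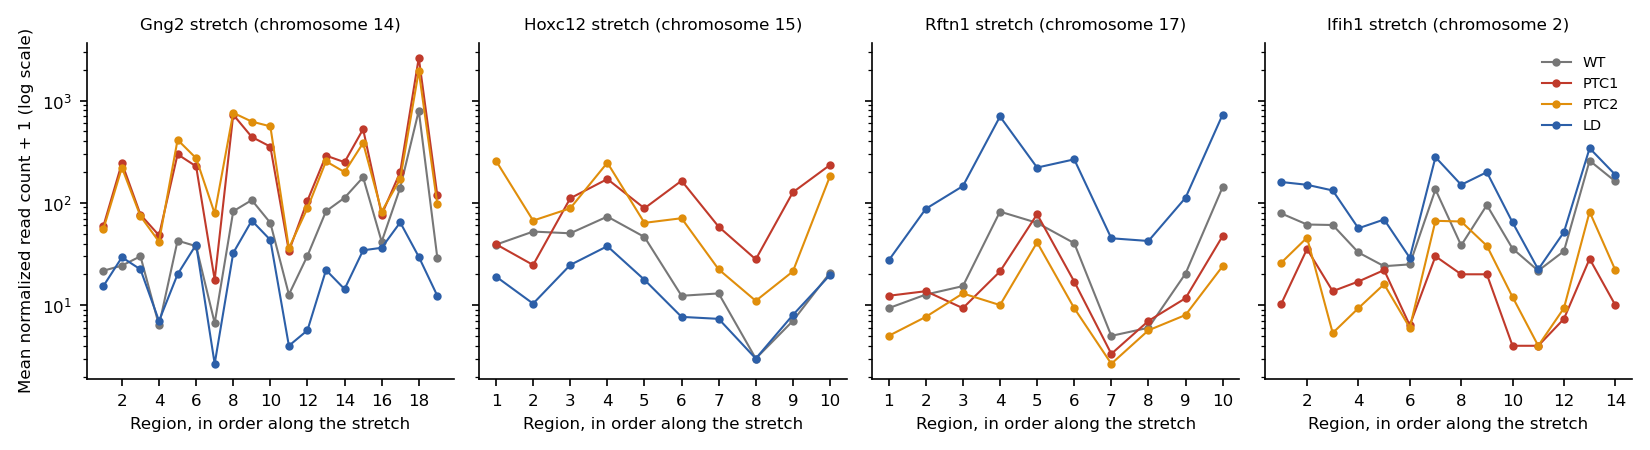
Mean normalized read count + 1 (log scale) of each group at successive regions of 4 runs, numbered in order along the chromosome. The median WT value lies between LD and the premature stop lines in each run. It is nearer to LD in the Gng2 and Hoxc12 runs (40.67 and 28.83) and nearer to the premature stop lines in the Rftn1 run (16.83). In the Ifih1 run it is 48.5.

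Other named regions stood alone. Around Rnls, Bicd1, Chd7 and Stmn2, 1 of the nearest regions (10, or 8 at Bicd1) was on the same side with both lines, and none was called in each line in that direction. At Hspb1 this was 2 of 10 with none called, and at Hsd17b11 4 of 10 with 1 called. The median difference of the neighbours of Chd7 was 1.33, against -3.92 at Chd7 itself. Around Gng2 and Prss2 all 10 neighbours were called above LD in each line, with medians of 3.31 and 3.20.

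Calls were unevenly spread over chromosomes. On chromosome 6, which holds Actg2, 40.6% of the regions were called above LD in each line and 6.93% below, with a median log2 difference of 0.51. Chromosome 15 was similar (38.4% and 6.44%, median 0.48), and chromosome X had 31.6% above and 19.2% below. On chromosome 2, 5.99% were above and 33.8% below (median -0.32), and on chromosome 9, 5.66% and 27.8% (median -0.30). On chromosomes 6 and X the LD line lay below WT, by medians of -0.35 and -0.52. PTC1 and PTC2 differed from WT by 0.20 and 0.08 on chromosome 6 and by -0.11 and -0.27 on X. On chromosome 15 PTC1 and PTC2 lay above WT, by 0.44 and 0.18, and LD below it, by -0.17. The part of these shifts in the difference of any single gene was not tested. A value after local or chromosome centring is given where it turns a sign, and for many but not all named genes that it moves by over 1.5 times.

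**Figure D5:**
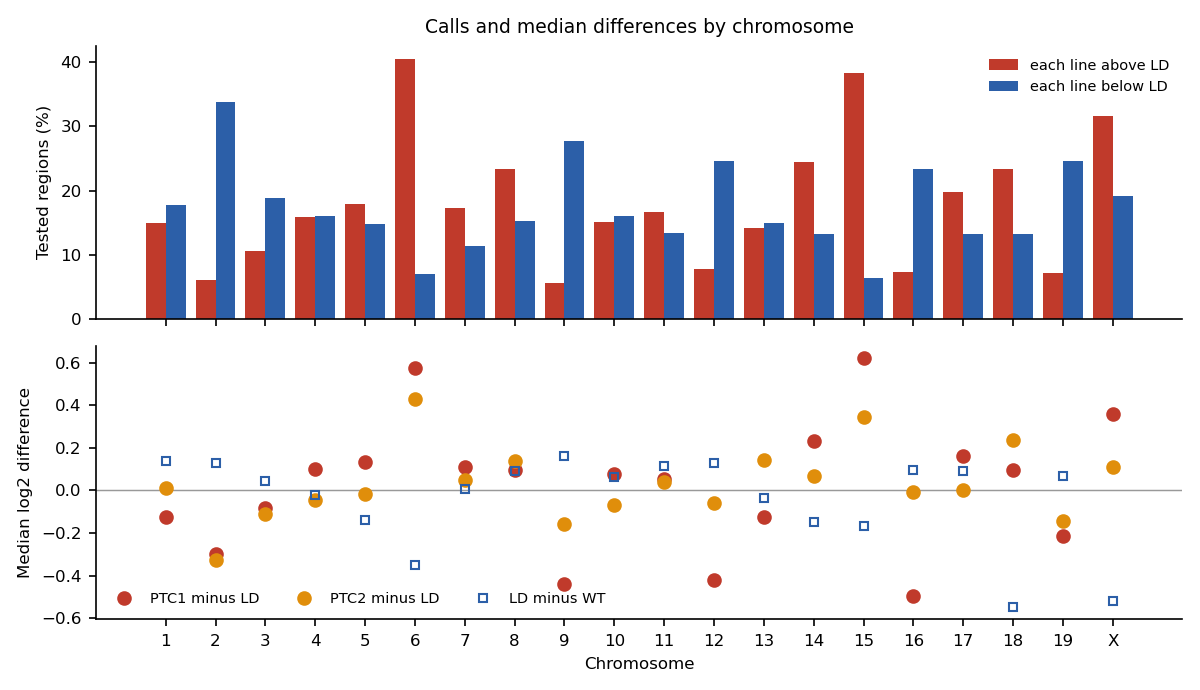
Top, percentage of tested regions on each chromosome called above or below LD in each premature stop line; bottom, median log2 difference of PTC1 and PTC2 from LD (circles) and of LD from WT (squares). Chromosomes 6 and 15 have 40.6% and 38.4% of their regions above LD, and chromosome 2 has 33.8% below.

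Start sites were called above LD more often than other regions. Of the regions within 500 bp of a listed start site, 33.3% were above LD in each line and 9.31% below, against 14.8% and 19.2% of regions with no listed gene. These shares moved with the scaling, to 23.1% and 15.7% under loess normalization and to 42.7% and 5.78% under scaling to the same median. The 16396 most open regions (mean normalized read counts of 621 to 8818) had a like share above LD, 33%. How far these are the same regions as those near start sites was not tested. Among regions that differed by 1 or more in both lines, 5.15% of those above and 4.68% of those below lay within 500 bp of a start site, against 12.6% of all regions, and their median widths were 406 and 427 bp against 522 bp.

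Gene lists were read at the region nearest each start site, for 12337 genes in all. Of these, 5138 (41.6%) were higher in both premature stop lines and 2061 (16.7%) lower, with a median log2 difference of 0.12. In each line, 30.8% were called above and 9.89% below. Under loess normalization the shares higher and lower were 32.3% and 25.6%, and after local centring 38.6% and 14.7%. A list is described beside these values, with no test of the list.

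Genes of the actin cytoskeleton differed from LD in both directions. Of 15 factors and targets of the MRTF-SRF pathway, in which free actin monomers hold back the coactivator of SRF, 9 were higher and 2 lower, with a median of 0.34. That median was 0.02 after local centring, with 5 higher and 2 lower, where all genes read had a median of 0.10. Zyx, a focal adhesion protein gene on chromosome 6, was 0.87 higher and turned to -0.02 after local centring, and Myh9, a non-muscle myosin gene on chromosome 15, was 0.59 higher and turned to -0.02. After chromosome centring Zyx was at 0.38 and Myh9 at 0.12, and both kept the call. Mrtfa, the coactivator itself, had 2624, 2573 and 2899 in PTC1, 2674, 2746 and 2663 in PTC2 and 1679, 1718 and 1772 in LD (0.65, and 0.25 after local centring). Ankrd1, a stretch-responsive gene, was lower by -0.63 (-0.36 after local centring).

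Actin nucleators and actin-binding genes had 17 of 38 higher and 7 lower (median 0.14), close to the shares over all genes, and under loess normalization 11 in each direction. The formin gene Daam2 stood out in size, with 871, 887 and 924 in PTC1, 317, 292 and 271 in PTC2 and 110, 88 and 80 in LD. LD overlapped WT (138, 109 and 135) at Daam2, and the log2 difference of 2.47 was uneven, 3.27 in PTC1 and 1.66 in PTC2. Wasl, an activator of the Arp2/3 complex, was 1.03 higher (0.51 after local centring), the monomer-binding thymosin gene Tmsb10 0.89 (0.06, not called) and the twinfilin gene Twf1 0.68 (0.34). After chromosome centring Tmsb10 was at 0.40 and called.

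Smooth muscle contractile genes did not follow Actg2 as a list. Of 17 read, 3 were higher and 3 lower, with a median of -0.04. Cnn1, a calponin gene, was 0.78 higher in each line, with 314, 362 and 388 in PTC1, 336, 372 and 353 in PTC2 and 200, 205 and 212 in LD. The caldesmon gene Cald1 was 0.92 higher (0.30 after local centring and 0.43 after chromosome centring). In the other direction Synpo2, an actin-bundling protein gene, had 12, 8 and 7 in PTC1, 43, 51 and 71 in PTC2 and 153, 164 and 163 in LD (-2.80), and the smooth muscle myosin gene Myh11 was lower by -0.95.

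Among 17 genes of nonsense-mediated decay, 9 were higher and 1 lower (median 0.18), and under loess normalization 6 and 5. The largest difference was at Upf3b on chromosome X, which encodes a factor that links the exon junction complex to UPF1, with 1347, 1352 and 1384 in PTC1, 1123, 1113 and 1240 in PTC2 and 713, 610 and 720 in LD. WT (1557, 1458 and 1463) was higher still, and the log2 difference of 0.89 was 0.34 after local centring. Upf2 was lower by -0.26, a call that was lost after local centring (-0.04) and whose sign turned to 0.06 after chromosome centring. Of 31 genes of the mRNA decay machinery 16 were higher and 4 lower (10 and 6 under loess normalization), with Lsm5, of the ring that binds mRNA ends before decapping, at 1.03 (0.37 after local centring) and the decapping activator gene Dcp1a at 0.50. COMPASS complexes, which methylate histone H3 at lysine 4 and have been linked to transcriptional adaptation, had 6 of 16 genes higher and 4 lower, or 4 and 5 under loess normalization. The demethylase gene Kdm6a (0.47, with 0.38 after local centring, 0.20 after chromosome centring and 0.26 under loess normalization) and the CpG-binding protein gene Cxxc1 (0.49, and 0.27 after local centring) kept their direction and call under both centrings. Kmt2d (0.43) and Hcfc1 (0.72) turned to -0.001 and -0.10 after local centring. After chromosome centring Kmt2d was at -0.04 and Hcfc1 at 0.45.

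Growth and stress genes were higher more often than lower, less so under loess normalization. Of 18 immediate early genes, which answer growth factors within minutes, 11 were higher and 2 lower (median 0.23), and 7 and 5 under loess normalization. Klf6, a zinc finger factor gene on chromosome 13, had 1946, 1902 and 1836 in PTC1, 1341, 1284 and 1260 in PTC2 and 658, 669 and 614 in LD (1.28). Jund was 0.49 higher (0.28 under loess normalization and 0.13 after local centring) and Nr4a1 0.68 higher (0.28 after local centring), while Egr3 was lower by -1.01. Of 19 p53 targets and inhibitors of cyclin-dependent kinases 11 were higher and 2 lower, and 7 and 4 under loess normalization. The damage response gene Gadd45a was 0.81 higher (0.23 after local centring), and the inhibitor gene Cdkn2b was lower, at 436 in PTC1, 886 in PTC2 and 1441 in LD on average (-1.21). Housekeeping genes, a list with no tie to actin, also gave 8 of 11 higher and 1 lower, and 3 of each after local centring.

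Interferon response genes leaned the other way. Of 19 read, 2 were higher and 9 lower (median -0.14), with 2 and 10 under loess normalization and 3 and 8 after local centring. Mx2, an antiviral GTPase gene, had 165, 200 and 164 in PTC1, 299, 238 and 325 in PTC2 and 561, 486 and 523 in LD, with WT highest (733, 732 and 761), a difference of -1.22 (-0.47 after local centring). Isg15, a ubiquitin-like modifier gene, was lower by -1.42 and Ifih1 by -1.94 (-1.08 after local centring). The peptide transporter gene Tap1 passed through 1 line: PTC1 had 298, 327 and 330, while PTC2 with 1219, 1125 and 1066 overlapped LD with 1244, 1131 and 1372.

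Lists of signalling and development had members in both directions. WNT pathway genes were 9 higher and 6 lower of 32, with Fzd3 above and the secreted antagonist gene Sfrp2 below LD (-2.21). Wnt10b, a WNT ligand gene on chromosome 15, was 1.39 higher (0.93 after chromosome centring), with 911, 1000 and 936 in PTC1, 683, 682 and 748 in PTC2 and 335, 293 and 304 in LD. TGF-beta and BMP genes were 8 and 10 of 34, and developmental transcription factors 15 and 14 of 53. In the latter Gata4, which encodes a GATA family factor, was 2.16 higher. Adhesion receptors had 9 higher and 12 lower of 29, with the collagen-binding integrin gene Itga2 at -1.77 and the ephrin gene Efnb1 at 0.78 (0.05, not called, after local centring). After chromosome centring Efnb1 was at 0.52 and called. Matrix genes were 15 and 7 of 39, with the protease gene Mmp3 at -2.11, of which PTC1 gave -3.72 and PTC2 -0.50 (the mean was -1.26 after local centring). YAP-TEAD genes were 6 and 1 of 19, and cell cycle genes 15 and 7 of 26. Under loess normalization the balance turned or levelled in several of these lists, to 6 higher and 9 lower for WNT, 6 and 15 for TGF-beta and BMP, 12 and 20 for developmental factors, 9 and 15 for adhesion, 15 and 13 for matrix, 3 and 5 for YAP-TEAD and 9 and 8 for cell cycle genes. Among the cell cycle genes were the replication licensing genes Mcm3 at 0.57 and Mcm2 at 0.84 (-0.08 after local and 0.35 after chromosome centring).

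Fibroblast markers were open in all groups. The summed value of 10 fibroblast markers ran from 14309 to 17522 in the premature stop libraries and from 15114 to 16083 in LD, with 1 marker higher and 2 lower, or 1 and 5 under loess normalization. Markers of other cell types had smaller sums, none was at 0, and they differed in both directions. Adipocyte markers had 1 higher and 3 lower of 6, and their summed value was 1384 to 1407 in LD against 546 to 875 in the premature stop libraries. The largest part of these sums was Cebpa, an adipogenic factor gene, which had 1011, 1034 and 1036 in LD against 194, 150 and 155 in PTC1. PTC2 with 590, 518 and 543 overlapped WT with 565, 505 and 539 at Cebpa, and the log2 difference from LD was -1.77. Cartilage and bone markers had 5 higher and 1 lower of 6 (summed value 3333 to 3739 in LD and 4173 to 4659 in the premature stop libraries). Epithelial markers had 2 higher and 1 lower of 4 (547 to 586 and 719 to 1416), endothelial markers 2 and 1 of 5 (852 to 1010 and 1127 to 1339), and muscle markers 1 and 0 of 6 (435 to 459 and 595 to 692). Blood markers had 0 higher and 1 lower of 3 (714 to 783 and 571 to 657), and neural markers 1 and 2 of 6 (2095 to 2236 and 1594 to 2995). The epithelial keratin gene Krt5 had 936, 920 and 933 in PTC2, 200, 203 and 213 in PTC1 and 126, 120 and 88 in LD. Their part in the other differences was not tested.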

How the data were processed

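Per the labels' protocols, ATAC-seq libraries were made from 2.5e+04 cells each with digitonin and Tn5 (37 °C, 30 min) and sequenced in pairs. Per the submitters' processing notes, the tools were Trimmomatic 0.39, STAR 2.7.10a, Picard 2.25.5 and DESeq2 1.30.1 with build mm10, with no role given for each. For the peak caller and any shift for Tn5, nothing is given in the sources used here. The deposited score values are read counts per region that the authors scaled by 1 factor per sample and rounded to whole numbers, so no count test was run and read depth is unknown. The fraction of a region inside a gene body, a deposited annotation, was not tested.

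Regions with a mean of 5 or more over 12 libraries were tested on log2(value + 1) with limma 3.58.1 (R 4.3.3): a mean per genotype, moderated variance with a trend, and Benjamini-Hochberg adjustment over all 81985 regions at 0.05. WT libraries entered the fit to share the estimate of spread. A difference is the mean of the PTC1 and PTC2 group means minus the LD mean. Named by size were 12 regions per direction with a listed gene, 4 without one and 6 per WT position. Up to 4 called genes per list were named by the lowest adjusted p, not by size (26 lists, 474 genes, each read at its region closest to the start). All regions within 1e+04 bp of an actin gene were named as well. The largest regions were spaced by 1e+05 bp, and libraries did not overlap. Some of these are not reported here. Alternatives changed the scaling (same median, cyclic loess, centring on 100 neighbouring regions or on the chromosome), pseudocount, low filter, variance trend, libraries and threshold. The members and lists were chosen with earlier results of these data known. Tables and figures used Python 3.11.15, pandas 2.3.3, scipy 1.17.1 and matplotlib 3.10.9. The same fit was run on simulated libraries with known changes in a small part of the regions. These held no shifts of chromosomes or stretches, so that run does not cover data like these.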

Additional observations from a re-analysis of the deposited data

Results flagged for a closer look

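Of 43 regions at actin genes or with the largest differences from LD, 16 had effects that differed between the premature stop lines. The test was of the difference itself (PTC1 minus PTC2 in the same limma fit, adjusted p of 1.2e-09 to 0.0149), and both lines lay on the same side of LD. Over all tested regions 62.5% were called between the lines, so such a difference was not particular to these regions. PTC1 was the higher line upstream of Actg2 (chromosome 6, from 83541748) by 1.46 on the log2 scale, at Il1rapl1 by 1.14, and at Fzd3 and Gabre by 1.08 each. It was also higher at Rftn1 by 0.99, at Trim68 by 0.94, at Pcdh9 by 0.85, at Hspb1 by 0.51 and in the chromosome 14 region from 20082416 by 0.42. At Mga the difference of 1.59 rested on 1 library with a value of 0, and without PTC2 replicate 3 it was 0.39 (adjusted p = 0.0875, limma). Without PTC2 replicate 2 the chromosome 14 region was at 0.40 with an adjusted p of 0.0531. PTC2 was the higher line, with a PTC1 minus PTC2 difference of -1.72 at Mss51, -0.82 at Cnnm1 and -0.58 at Hs3st3b1. The same held near Acta1 on chromosome 8, with -0.96 from 123883230 and -0.27 from 123884698, and near Acta2 on chromosome 19, with -0.38 from 34243936.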

How the results depend on the processing

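Of 146 named regions 144 were called, and 4 lost the call without some library. Apart from the actin regions they had to be called to be named, so these counts do not measure how stable calls are. Of all tested regions 64.8% were called in the mean. Requiring a log2 difference of 1 or more left 7389 regions higher and 9498 lower, and 3692 and 5262 in each line. Leaving out each library in turn gave 21015 to 22536 higher, 20851 to 22293 lower, 13252 to 14370 above and 12922 to 14282 below in each line, and 2.97 to 3.275 at the Actg2 start site. Scaling to the same median moved the split in each line to 18356 above and 11071 below. Of the calls in each line above and below LD, 86% and 85.7% were shared with loess normalization, 73.7% and 81.7% with chromosome centring, and 62.3% and 71.9% with local centring. With the replicate number as a replicate block the counts were 22574, 22370, 14479 and 14464. Correlations of deviations from the group means were -0.00443 to 0.0447 between same-numbered libraries of different groups and -0.0396 to 0.0222 between others. Any part shared by replicate number was weak, and the main fit left it out.

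Signs turned at the following regions, and the cause was not tested. Under local centring the values were -0.093 at Dguok, -0.264 at chromosome 6 from 83512300, -0.016 at Zyx, -0.015 at Myh9, -0.102 at Hcfc1, -0.001 at Kmt2d, -0.175 at Fbln2, -0.079 at Tcf7l1, -0.082 at Mcm2, -0.151 at Col1a2, -0.220 at Krt8, -0.030 at Fbxl18 and 0.177 at chromosome 19 from 34241387. Under chromosome centring they were 0.060 at Upf2, -0.149 at Magohb and Tead4, -0.037 at Kmt2d, -0.023 at Amot, -0.111 at Cdkn1b, -0.267 at Krt8 and 0.128 at 34241387. Under loess normalization they were -0.095 at Actb, -0.012 at Fbxl18 and 0.108 at 34241387, which stood at 0.069 when scaled to the same median. Neither Fbxl18 (-0.007 to 0.112 without one library) nor 34241387 (-0.187 to 0.060) was called. Read depth is unknown, so no counting error could be given for low values.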
